A study of Mus musculus with 23 samples.

Results

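*Zbtb11* knockout (KO) mouse embryonic stem cells (ESC) were compared with wild-type ESC, both treated with 250 nM 4-hydroxytamoxifen (4OHT) for 48 h, by RNA-seq. The comparison used 6 of the 23 samples of the series, all 3 libraries labelled *Zbtb11* KO and all 3 labelled 4OHT control, chosen by their labels. *Zbtb11* KO cells were Zbtb11lox/lox with ERt2-Cre at Rosa26, treated with 4OHT. 4OHT control cells were Zbtb11WT/WT with an unmodified Rosa26, also treated with 4OHT. Levels are given beside those of 3 EtOH control libraries, which came from the Zbtb11lox/lox ERt2-Cre line treated with the carrier ethanol for 48 h. All groups derived from E14, a mouse ESC line, and were grown without feeder cells in serum and LIF. The Zbtb11lox/lox ERt2-Cre line was a single homozygous clone made by 2 rounds of CRISPR editing, which placed loxP sites around exon 3 of *Zbtb11* and then ERt2-Cre, a Cre recombinase fused to an estrogen receptor domain that answers to 4OHT, into Rosa26 on chromosome 6. *Zbtb11* KO and 4OHT control cells therefore had the same drug, but differed in the loxP alleles, Cre and clonal history as well as in *Zbtb11*, and these cannot be told apart in this comparison alone.

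Zbtb11 is a transcription factor of the ZBTB family, whose members bind DNA through zinc fingers and partner proteins through a BTB domain. Most mitochondrial proteins, including nearly all subunits of respiratory complex I and the mitochondrial ribosome, are encoded in the nucleus and reach the organelle after translation. In mouse ESC, as in other cells, their promoters are bound by factors such as NRF-1 and NRF-2/GABP.

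The libraries held 16644385 to 20416692 reads on genes in *Zbtb11* KO, 14301457 to 23100544 in the 4OHT control and 18872759 to 23876604 in the EtOH control. Replicate 1 of every group stood apart from replicates 2 and 3, so replicate number was kept as a block in the fit, and the counts of called genes are also given without replicate 1 and without replicate 2. The lines also differed at the Y chromosome, where each of 6 genes tested had 0 or 1 reads over the 3 *Zbtb11* KO libraries and 82 to 5086 reads over the 3 4OHT control libraries. All 8 listed ESC markers passed the filter on low counts, and their summed level ranged from 3525 to 3920 CPM (read counts scaled to a common library size) in *Zbtb11* KO, from 4048 to 4463 CPM in the 4OHT control and from 3550 to 3997 CPM in the EtOH control. For the other markers the sums cover only those that passed the filter. For fibroblasts 5 of 10 listed markers passed, and they summed to 24.1 to 37.3 CPM in *Zbtb11* KO and 22.2 to 38.2 CPM in the 4OHT control. Of the 10, 1 was at 0 in all 9 libraries. For primitive endoderm 6 of 10 listed markers passed, and they summed to 69.3 to 134 CPM against 70.6 to 120 CPM. For trophoblast 2 of 8 passed, with sums of 5.28 to 8.68 CPM against 4.61 to 15.2 CPM. Each of these lists had 1 marker at 0 in all 9 libraries. Fewer cells of a type and less RNA per cell cannot be told apart in bulk libraries.

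The deletion itself could not be checked from the counts. In the annotation of the count files the reads of *Zbtb11* fall under the identifier ENSMUSG00000022601.9, which also holds the exons of the ribosomal protein gene *Rpl24* (chr16:55966388-56009026, mm9). That identifier had 6236, 7380 and 7313 reads in *Zbtb11* KO and 5408, 8177 and 8596 in the 4OHT control, with a log2 fold change of -0.05 (SE 0.05, adjusted p = 0.488).

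The sequences below show a motif shared by the promoters of some of the largest decreases. The motif CGGAACC, or its reverse complement GGTTCCG on the other strand, was the 7-letter word with the largest excess in the promoters of genes that fell by more than 2-fold and had a Zbtb11 ChIP-seq peak at the promoter, as detailed with the ChIP-seq values. Each line gives 30 bases of the mouse genome (mm9) around the match, 5′ to 3′ along the gene's strand, with the motif in capitals. The matches start 1 to 73 bases upstream of the annotated gene start. That of *Ndufc2* starts 1 base upstream and runs past the gene start, so it does not lie wholly in the upstream bases. The lines show genes that have the motif, and *Slc35a3*, *Ankrd40*, *Pigq* and *Col6a3*, also among the 10 largest decreases, have no match in the 250 bases upstream.
*Trdmt1*, chr2:13466340-13466369, minus strand: ctgaaaagccgCGGAACCagaagcgaaggg
*Hus1*, chr11:8911194-8911223, minus strand: caccatccccaCGGAACCtctgtgcccgcg
*Zfp580*, chr7:5003087-5003116, plus strand: gactccagcctCGGAACCttcgtgtgtgta
*Ndufc2*, chr7:104548501-104548530, plus strand: acttagaagccCGGAACCtcgcgtgcagag
*Alg3*, chr16:20610859-20610888, minus strand: gagcgtgagacCGGAACCtagtgtgtgaga
*Them4*, chr3:94113941-94113970, plus strand: gcaaaatctccCGGAACCaaaagcgggtgt
*Mrpl30*, chr1:37947294-37947323, plus strand: aaaacctttccCGGAACCaaagaaccgtac
*Taco1*, chr11:105927291-105927320, plus strand: ccgcgaggcagCGGAACCaactttgcagaa
*Coq3*, chr4:21806759-21806788, plus strand: agtgtaggaggCGGAACCcttccgctgggg

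Of 12797 autosomal genes tested outside chromosome 8 and distal chromosome 6, 2101 (16.4%) were lower and 2074 (16.2%) were higher in *Zbtb11* KO than in the 4OHT control (edgeR quasi-likelihood F test, adjusted p under 0.05). Over all 14346 genes tested, 34.9% were called, 18.1% lower and 16.9% higher. Most of these differences were small. The median log2 fold change was -0.39 among the genes called lower and 0.34 among those called higher, and 239 of these autosomal genes fell and 141 rose by more than 2-fold. Over all 14346 genes tested, which include chromosome 8, distal chromosome 6 and the sex chromosomes, 291 genes (2.03%) fell and 179 (1.25%) rose by more than 2-fold. Without replicate 2 the counts were 1248 lower and 1164 higher, and without replicate 1 they were 1718 and 1614. Without the replicate block they were 412 and 264. With library sizes in place of TMM factors 1800 genes were lower and 2472 higher, so which direction held more genes depended on the scaling. In the same fit, 1964 of these autosomal genes were lower and 2029 higher in the EtOH control than in the 4OHT control (over all genes tested 33.6% were called, 17.0% lower and 16.5% higher). Against the EtOH control, 229 were lower and 59 higher in *Zbtb11* KO (over all genes tested 2.25% were called, 1.79% lower and 0.46% higher). The 3 contrasts share libraries, so the count of one is no independent check on another.

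The named genes ranked here were annotated as protein-coding or long intergenic non-coding, with at least 2 CPM in the higher group and no overlap between groups. Among them the 10 largest decreases were in *Trdmt1*, *Col6a3*, *Hus1*, *Slc35a3*, *Ankrd40*, *Zfp580*, *Pigq*, *Ndufc2*, *Alg3* and *Them4*. In 9 of these 10, all but *Col6a3*, the log2 difference between the EtOH and 4OHT controls lay between -0.43 and -0.11, far smaller than the log2 fold change in *Zbtb11* KO. *Trdmt1*, which encodes a tRNA methyltransferase, had 0.524, 0.873 and 0.745 CPM in *Zbtb11* KO replicates 1 to 3 against 7.07, 10.2 and 9.95 CPM in the 4OHT control. *Trdmt1* fell 12.6-fold (log2 fold change -3.65, SE 0.18, adjusted p = 2.32e-12), while the EtOH control had 6.31, 8.13 and 8.14 CPM. *Hus1*, a subunit of the 9-1-1 clamp that loads at sites of DNA damage, had 14, 13 and 12.1 CPM in *Zbtb11* KO against 104, 104 and 125 CPM in the 4OHT control (log2 fold change -3.09, SE 0.08, adjusted p = 1.63e-16). Its EtOH control level of 75, 80.8 and 91 CPM was below all 3 4OHT control libraries and above all 3 *Zbtb11* KO libraries. The UDP-N-acetylglucosamine transporter gene *Slc35a3* had 4.31, 3.54 and 3.08 CPM in *Zbtb11* KO, 33.3, 28.2 and 30.3 CPM in the 4OHT control and 28.5, 24.3 and 25.1 CPM in the EtOH control (log2 fold change -3.08, SE 0.10, adjusted p = 4.54e-15). *Slc35a3* overlaps *Hiat1* on the same strand and shares a near-identical stretch with *Hiat1*, so its reads are uncertain.

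*Ndufc2*, a subunit of complex I, had 3.55, 6.45 and 6.21 CPM in *Zbtb11* KO and 31.8, 41.4 and 38.6 CPM in the 4OHT control. It fell 6.85-fold (log2 fold change -2.78, SE 0.11, adjusted p = 7.55e-14), with 29.2, 31.9 and 30.3 CPM in the EtOH control. *Ndufc2* overlaps *Gm16053* on the same strand. *Alg3*, a mannosyltransferase of N-glycan assembly, had 2.74, 4.95 and 4.17 CPM against 24.2, 28.4 and 29.2 CPM (log2 fold change -2.77, SE 0.12, adjusted p = 2.50e-13). *Pigq*, needed for the first step of glycosylphosphatidylinositol (GPI) anchor synthesis, had 11.9, 9.21 and 7.10 CPM against 59.5, 68.2 and 65.6 CPM (log2 fold change -2.79, SE 0.11, adjusted p = 4.93e-14), and its exons overlap *Nhlrc4* on the same strand. In all 3 genes every *Zbtb11* KO library lay below every 4OHT control library, which the ranking required. *Zfp580* (log2 fold change -2.95, adjusted p = 1.10e-10), which encodes a zinc finger protein, and *Them4* (-2.59, adjusted p = 2.99e-07), which encodes a thioesterase, completed this group together with *Ankrd40* (-3.05, adjusted p = 4.12e-17). *Ankrd40* shares near-identical stretches with 149 other genes, so its count is uncertain.

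**Figure D1:**
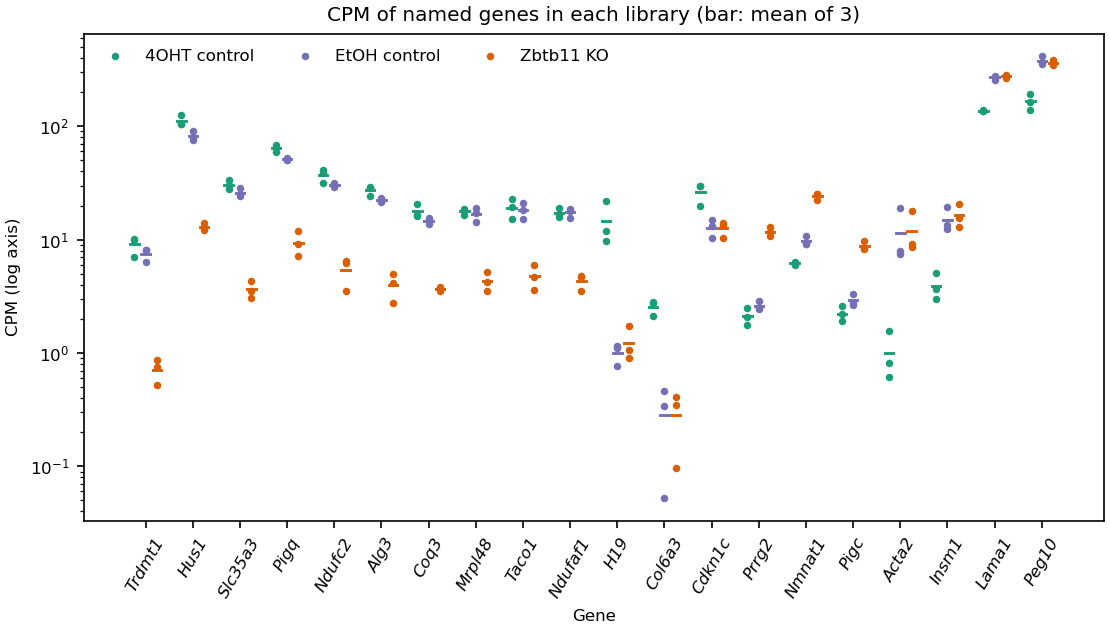
CPM (log axis) of named genes in each of the 9 libraries, coloured by group, with a bar at the mean of 3. For *Trdmt1*, *Hus1* and *Ndufc2* the 3 *Zbtb11* KO points lie below all points of both controls, while for *H19* and *Acta2* the *Zbtb11* KO and EtOH control points lie together, away from the 4OHT control.

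The collagen gene *Col6a3*, the other gene among the 10 largest decreases, and *H19*, which headed the list of imprinted genes, had another pattern across the groups. *H19* is annotated as a processed transcript, a type left out of the ranking of the 10. The imprinted non-coding RNA *H19* had 1.75, 1.07 and 0.894 CPM in *Zbtb11* KO and 21.8, 9.8 and 12 CPM in the 4OHT control, and *Col6a3* had 0.408, 0.0970 and 0.348 CPM against 2.13, 2.75 and 2.80 CPM. Their EtOH control levels, 1.15, 0.770 and 1.11 CPM for *H19* and 0.0521, 0.342 and 0.463 CPM for *Col6a3*, were as low as those of *Zbtb11* KO. The log2 fold changes were -3.53 (SE 0.17, adjusted p = 2.18e-12) for *H19* and -3.19 (SE 0.37, adjusted p = 9.75e-07) for *Col6a3*, and the matching EtOH control differences from the 4OHT control were -3.80 and -3.10.

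Counts of called genes in the lists that follow are to be read against the 16.4% lower and 16.2% higher over all these autosomal genes. Of 32 autosomal complex I subunit genes outside the regions set apart, 5 fell (15.6%), 4 rose (12.5%) and 23 were not called, shares at or below that background, with a median log2 fold change of 0.01 beside 0.01 over all these autosomal genes. Without the block 3 fell and 1 rose, and without replicate 2 the rises were 2. After *Ndufc2*, the largest falls were in *Ndufa12* (17.1, 17.7 and 16.3 CPM against 34.7, 36.4 and 34.9 CPM, log2 fold change -1.05, SE 0.08, adjusted p = 2.46e-09) and *Ndufs7*, which encodes an iron-sulfur subunit (18.5, 18.9 and 20.1 CPM against 40.0, 38.9 and 39.2 CPM, log2 fold change -1.04, SE 0.07, adjusted p = 4.59e-10). Neither differed detectably between the EtOH and 4OHT controls (log2 differences of -0.04, adjusted p = 0.692, and 0.02, adjusted p = 0.868). *Ndufb8*, a complex I subunit often used as a protein marker of the complex, was at 76.7, 77.4 and 74.0 CPM against 87.0, 78.4 and 78.5 CPM, and its log2 fold change of -0.09 did not pass the test (adjusted p = 0.201). *Ndufb10* rose (log2 fold change 0.70, SE 0.07, adjusted p = 2.38e-07), with a difference of 0.60 already present in the EtOH control.

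Among 11 complex I assembly factor genes, 2 fell and 1 rose (edgeR called 2 and 0 without the block, also 2 and 0 at an unadjusted p under 0.05). *Ndufaf1*, whose product acts early in complex I assembly, had 3.49, 4.70 and 4.77 CPM in *Zbtb11* KO, 15.7, 19 and 17 CPM in the 4OHT control and 15.6, 18.6 and 17.9 CPM in the EtOH control. Its log2 fold change of -1.99 (SE 0.11, adjusted p = 1.04e-11) contrasted with a log2 difference of 0.01 between the EtOH and 4OHT controls. *Tmem70* fell less (-0.79, SE 0.08, adjusted p = 3.95e-07).

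The 71 mitoribosome genes had 13 falls (18.3%) and 21 rises (29.6%), and their median log2 fold change was 0.03. In the EtOH control 23 of the 71 were higher and 3 lower than in the 4OHT control, with a median log2 difference of 0.10. In *Zbtb11* KO the falls included the larger differences. *Mrpl48* had 3.49, 5.19 and 4.27 CPM in *Zbtb11* KO and 18.1, 16.6 and 18.5 CPM in the 4OHT control (log2 fold change -2.02, SE 0.13, adjusted p = 1.06e-10). *Mrpl48* overlaps *D630004N19Rik* on the same strand and shares a near-identical stretch with it. *Mrpl44* (-1.70), *Mrpl1* (-1.55), *Mrpl30* (-1.49), *Mrpl3* (-1.48) and *Mrps34* (-1.1) also fell by more than 2-fold, whereas the rises ran from 0.17 for *Mrps18b* to 0.54 for *Mrpl36*. Without the replicate block edgeR called 8 mitoribosome genes lower and 0 higher (8 and 6 at an unadjusted p under 0.05), and DESeq2 with the block called 11 and 16. Without replicate 2 the falls were 8 and the rises 9. In complexes II to V, 4 of 38 genes fell and 7 rose, with log2 fold changes from -0.25 for *Sdha* to 0.46 for *Atp5l*, and without the block edgeR called 1 lower and 0 higher (3 and 4 at an unadjusted p under 0.05). Without replicate 1 or 2 there were 2 falls.

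Of 30 mitochondrial translation factor and tRNA synthetase genes, 4 fell (13.3%) and 5 rose (16.7%), near the background, with 4 and 2 without the block and 3 rises without replicate 1 or 3. *Taco1*, a translational activator of a complex IV subunit, had 3.61, 6.01 and 4.67 CPM against 15.1, 19.4 and 22.9 CPM in the 4OHT control and 15.1, 21.1 and 18.1 CPM in the EtOH control (log2 fold change -2.01, SE 0.12, adjusted p = 5.86e-11). *Trmu*, which modifies mitochondrial tRNAs, and *Ict1*, a release factor of the mitoribosome, fell by 1.02 and 0.86 on the log2 scale. *Tufm*, the mitochondrial elongation factor Tu, rose in every replicate pair, from 74.6, 94.6 and 101 CPM in the 4OHT control to 123, 158 and 171 CPM in *Zbtb11* KO (log2 fold change 0.74, SE 0.05, adjusted p = 1.11e-09), with 98.2, 141 and 141 CPM in the EtOH control. In coenzyme Q synthesis 2 of 12 genes fell and 1 rose (1 and 1 without the block, 1 fall without replicate 3 and 2 rises without replicate 1). *Coq3*, a methyltransferase of that pathway, had 3.78, 3.73 and 3.53 CPM against 20.7, 16.1 and 16.4 CPM (log2 fold change -2.25, SE 0.12, adjusted p = 6.94e-12).

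The regulators of these genes showed little difference in RNA level. Of 11 genes of the NRF1, GABP and PGC-1 group, 1 fell (*Yy1*, log2 fold change -0.20, adjusted p = 0.00826 with the block and not called without it or without replicate 2) and 0 rose (1 at an unadjusted p under 0.05 in edgeR, 0 in DESeq2). *Gabpa*, the DNA-binding subunit of NRF-2, had 177, 178 and 178 CPM in *Zbtb11* KO and 174, 186 and 187 CPM in the 4OHT control. Its log2 fold change was -0.04 (SE 0.05, adjusted p = 0.623), and that of *Nrf1* was -0.05 (SE 0.06, adjusted p = 0.607).

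Large decreases also occurred outside the mitochondrial lists. Among 51 glycosylation and GPI anchor genes, 13 fell (25.5%) and 8 rose (15.7%). Members of this and the other lists were chosen with earlier results of these data known, so these shares are a description only. Besides *Slc35a3*, *Pigq* and *Alg3* the falls of more than 2-fold were in *Man2c1* (-1.55), *B4galt7* (-1.25) and *Dpagt1* (-1.20). In the same list *Pigc*, a partner of Pigq in GPI anchor synthesis, rose. *Pigc* had 9.72, 8.19 and 8.49 CPM in *Zbtb11* KO, 2.20, 2.57 and 1.91 CPM in the 4OHT control and 2.76, 2.65 and 3.33 CPM in the EtOH control (log2 fold change 1.97, SE 0.16, adjusted p = 7.15e-09). It overlaps another transcript on the same strand. Without the block the list had 6 falls and 1 rise, and without replicates 1, 2 and 3 the rises were 4, 3 and 5.

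Of 35 tRNA and rRNA modification genes, 9 fell and 5 rose, and without the block edgeR called 8 lower and 0 higher (9 and 0 at an unadjusted p under 0.05), while the rises were 2 without replicate 1 and 1 without replicate 2. After *Trdmt1*, the falls were led by *Trp53rk*, a kinase of a tRNA-modifying complex (0.349, 0.824 and 1.09 CPM against 2.06, 4.15 and 3.6 CPM, log2 fold change -2.10, SE 0.25, adjusted p = 1.44e-06), and *Tsen15*, a subunit of the tRNA splicing endonuclease (2.68, 3.93 and 3.63 CPM against 12.7, 11.8 and 14.7 CPM, -1.92, SE 0.13, adjusted p = 5.05e-10). The rises in this list reached 0.48 on the log2 scale, in *Nsun5*.

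Of 40 vesicle transport genes, 7 fell and 7 rose, 17.5% each way and near the background. Without the block edgeR called 5 lower and 0 higher (7 and 5 at an unadjusted p under 0.05), and without replicate 2 it called 7 and 2. *Stx18*, a SNARE protein of the endoplasmic reticulum, had 1.11, 2.62 and 2.33 CPM against 8.85, 10.7 and 11.3 CPM (log2 fold change -2.33, SE 0.16, adjusted p = 3.52e-10). *Sar1b*, a GTPase of COPII vesicles, had 10.2, 9.70 and 11.1 CPM against 31.5, 38.6 and 37.3 CPM (-1.80, SE 0.08, adjusted p = 1.53e-12). *Stx16*, a SNARE of the Golgi, fell (-1.41, SE 0.08, adjusted p = 2.21e-11) although its EtOH control level was above the 4OHT control by 0.27. Of 16 genes of the 9-1-1 clamp and ATR checkpoint, 4 fell and 6 rose (2 and 1 without the block, and 3 and 1 rises without replicates 1 and 2), and *Hus1b*, a paralogue of *Hus1*, fell at low counts from 1.51, 1.22 and 1.38 CPM to 0.349, 0.194 and 0.0993 CPM (-2.69, SE 0.37, adjusted p = 1.08e-05). *Hus1b* overlaps *Exoc2* on the same strand.

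The largest increases fell into the same 2 kinds of pattern across the groups. *Prrg2*, a transmembrane protein with a Gla domain, had 12.9, 10.7 and 11.6 CPM in *Zbtb11* KO, 2.47, 1.76 and 2.09 CPM in the 4OHT control and 2.87, 2.44 and 2.5 CPM in the EtOH control (log2 fold change 2.49, SE 0.14, adjusted p = 2.01e-11). *Nmnat1*, a nuclear enzyme of NAD synthesis, had 22.2, 25.4 and 25.2 CPM, 6.38, 5.92 and 6.22 CPM and 9.18, 9.11 and 10.7 CPM in the same order (1.99, SE 0.10, adjusted p = 4.08e-12), and it shares near-identical stretches with 16 other genes. In *Prrg2*, *Nmnat1* and *Pigc*, *Zbtb11* KO lay above both controls. *Prrg2* overlaps *Nosip* and *Pigc* overlaps *Dnm3* on the opposite strand, and since the strand setting of the read counting is not given in the sources used here, reads of such pairs cannot be told apart.

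In the other 7 of the 10 largest increases, *Zbtb11* KO and the EtOH control had similar levels. *Acta2*, smooth muscle actin, had 8.68, 9.07 and 17.7 CPM in *Zbtb11* KO, 0.618, 0.813 and 1.55 CPM in the 4OHT control and 7.46, 7.87 and 18.9 CPM in the EtOH control (log2 fold change 3.57, SE 0.16, adjusted p = 8.15e-13). The neuroendocrine transcription factor gene *Insm1* had 13, 15.6 and 20.7 CPM, 3.02, 3.66 and 5.06 CPM and 12.3, 13.5 and 19.3 CPM (2.07, SE 0.11, adjusted p = 6.77e-12). *Cyp1b1*, *Col1a2*, *Msln* and *C1qtnf6* rose by 1.82 to 2.11 on the log2 scale, beside EtOH control differences of 1.73 to 2.19. *Esr1*, the estrogen receptor gene, had 2.68, 3.01 and 3.18 CPM in *Zbtb11* KO, 0.137, 0.0452 and 0.0444 CPM in the 4OHT control and 3.44, 3.55 and 3.93 CPM in the EtOH control (5.34, SE 0.37, adjusted p = 7.56e-10). The ERt2-Cre transgene, which the cells of both groups with the higher *Esr1* counts carry, holds an estrogen receptor domain, and whether its reads were counted under *Esr1* was not tested.

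**Figure D2:**
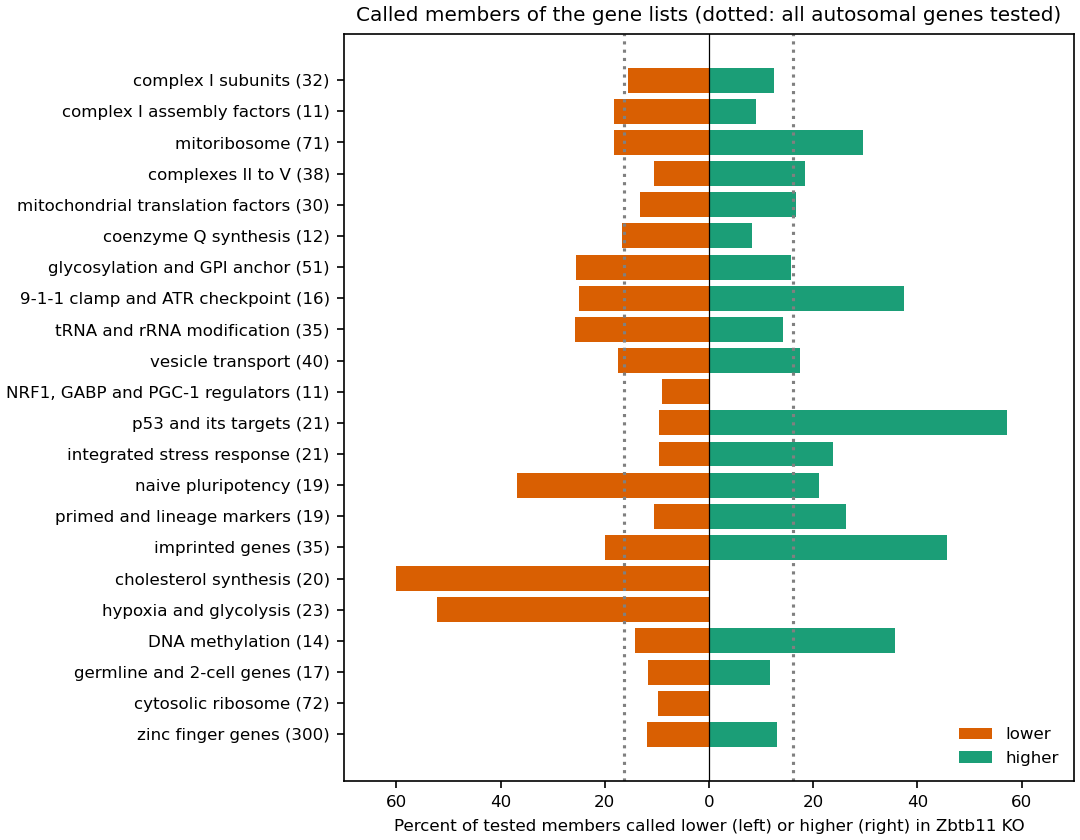
Percent of tested autosomal members of each list called lower or higher in *Zbtb11* KO than in the 4OHT control (edgeR, adjusted p under 0.05). The dotted lines mark all autosomal genes outside chromosome 8 and distal chromosome 6, 16.4% lower and 16.2% higher, and the cholesterol synthesis and hypoxia lists lie to one side while the mitochondrial lists have calls in both directions.

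ChIP-seq coverage was an independent readout, since it was not used to select the genes. A consensus Zbtb11 peak lay at the promoter (2 kb upstream to 500 bases downstream of the gene start) of 28.5% of the 12797 autosomal genes (3647 genes), with a median normalised read coverage of 104. Of the 239 genes that fell by more than 2-fold, 99 (41.4%) had a promoter peak, with a median coverage of 666. Of the 141 genes that rose by more than 2-fold, 13 (9.22%) had one, with a median coverage of 745. For all genes called lower or higher, most of which changed by less, the shares were 29.2% and 31.0%, close to that of all genes tested. No test was run on these shares.

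Splitting the 239 genes by promoter peak, a split chosen after the values were seen, gave 2 sets whose EtOH control levels differed. The 99 genes with a peak had a median log2 fold change of -1.55 (quartiles -2.00 and -1.21), and a median log2 difference of -0.18 between the EtOH and 4OHT controls. *Trdmt1*, *Hus1*, *Ndufc2*, *Alg3*, *Taco1*, *Coq3* and *Ndufaf1* were among them. The 140 genes with no peak had medians of -1.22 and -1.09, and *H19* and *Col6a3* were among these. *Pigq* and *Ndufs7* fell in *Zbtb11* KO without a consensus peak at the outermost annotated gene start. Other transcript starts were not searched, so a peak there would have been missed. Among the genes that rose by more than 2-fold, the 13 with a peak, which included *Prrg2*, *Nmnat1* and *Pigc*, had a median log2 fold change of 1.37 and a median EtOH control difference of 0.80, and the 128 without one had 1.23 and 1.16. The contrasts share the 4OHT control libraries, so the values are given side by side as a description.

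**Figure D3:**
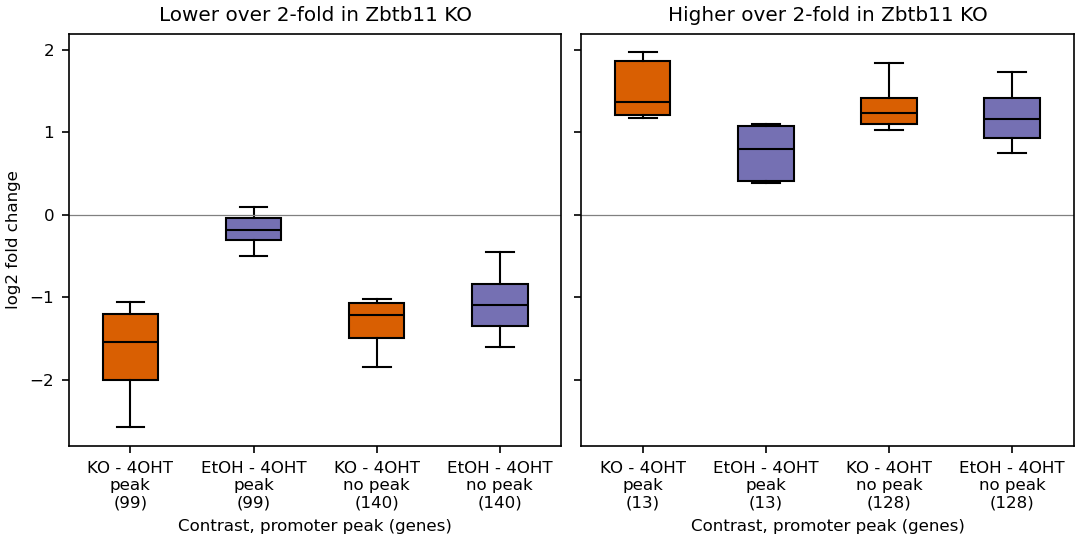
Log2 fold change of genes that were lower (left) or higher (right) by more than 2-fold in *Zbtb11* KO, with and without a consensus Zbtb11 peak at the promoter, for *Zbtb11* KO (orange) and the EtOH control (purple) against the 4OHT control (boxes: quartiles with the median, whiskers: 10th and 90th percentiles). The EtOH control box of the 99 lower genes with a peak lies near 0 (median -0.18), and that of the 140 without a peak lies near the *Zbtb11* KO box (medians -1.09 and -1.22).

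The share of strong decreases was highest where coverage was highest. Among genes with a promoter peak split by coverage into 5 bins of equal size, 11.6% of the strongest bin (85 of 730, coverage 314 to 1277) fell by more than 2-fold, against 0.137% to 0.823% in the 4 weaker bins and 1.53% of genes with no peak. In the strongest bin 34.0% were called lower and 18.6% higher, and the median log2 fold change was -0.05, so most genes with a strong promoter peak did not fall by more than 2-fold.

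**Figure D4:**
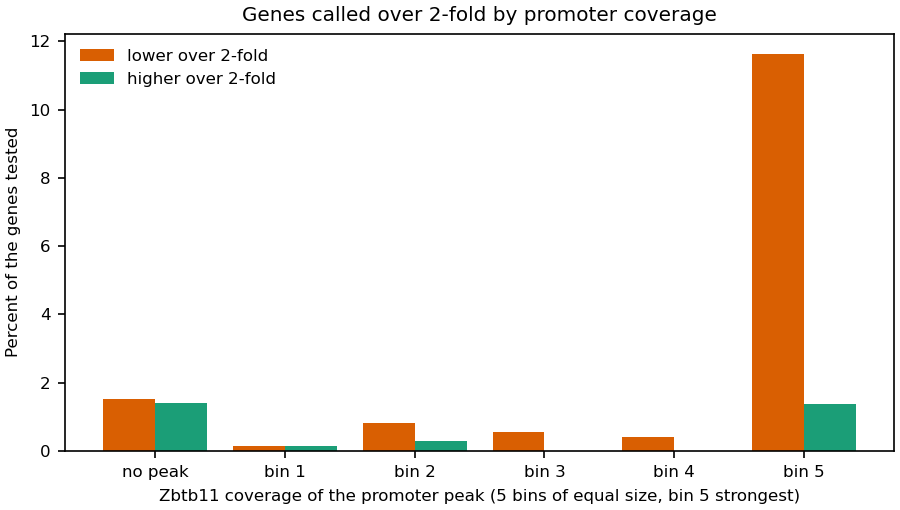
Percent of autosomal genes that were lower (orange) or higher (green) by more than 2-fold in *Zbtb11* KO than in the 4OHT control, for genes with no promoter peak and for 5 bins of promoter peak coverage. The strongest bin holds 11.6% of genes lower by more than 2-fold, and the 4 weaker bins hold 0.137% to 0.823%.

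The promoters of the strong decreases were searched for shared words in a window of 300 bases, from 250 before to 50 after the gene start, on both strands. CGGAACC ranked 1 of 8192 words of 7 letters by the difference in share, and was chosen for that rank after the values were seen. It occurred in 34 of the 99 promoters of genes that fell by more than 2-fold and had a peak (34.3%), in 5.35% of all 12797 windows, in 9.38% of all windows of genes with a promoter peak and in 3.57% of genes that fell by more than 2-fold without a peak. The word was more frequent at strong peaks. In the strongest coverage bin, which holds 85 of the 99 genes, 138 of 730 genes (18.9%) had CGGAACC. Of these 138 genes 31 (22.5%) fell by more than 2-fold, against 54 of 592 (9.12%) in that bin without CGGAACC. The word was chosen on the 99 genes that include these falls, so part of this difference is built in by the choice. It does not separate the word from peak strength. Of the 141 genes that rose by more than 2-fold, 4 had it, among them *Asz1*. The related words CCGGAAC and AGGTTCC, which overlap it, ranked 2 and 3. The word CCCGGAA ranked 4, in 25.3% of the 99 windows and 10.1% of all windows, and GCCGGAA ranked 5, in 23.2% and 8.65%. The word CCGGAAG is one of the ETS family, to which Gabpa belongs. It occurred in 27.3% of the 99 windows, in 15.7% of all windows and in 33.8% of windows of genes with a peak. The words ranked 2, 4 and 5 each hold CCGGAAG without its last letter. They can also overlap CGGAACC, and whether they were in excess apart from CGGAACC was not tested.

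Orientation and position of CGGAACC were not used to choose it. The 34 promoters held 37 matches, and 34 of these (91.9%) read CGGAACC on the gene's strand, against 54.5% of matches in all promoters with a peak and 51.2% in all windows. The median match lay 50 bases upstream of the gene start (quartiles 73 and 36 bases upstream), 28 of 37 lay within 100 bases upstream (75.7% against 46.0% for all promoters with a peak), and the median distance to the centre of the peak was 22.5 bases against 65.5. A match is a run of letters and was not tested as a binding site.

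Genes of cholesterol synthesis and of hypoxia and glycolysis were lower in *Zbtb11* KO by small amounts. Of 20 autosomal cholesterol genes 12 fell (7 without replicate 2) and 0 rose, with a median log2 fold change of -0.23. *Insig1*, which holds back sterol synthesis, fell within each replicate number (105, 53.2 and 54.9 CPM against 144, 80.3 and 59.4 CPM, log2 fold change -0.39, SE 0.07, adjusted p = 0.000263). The median EtOH control difference of this list was -0.09. Of 23 hypoxia and glycolysis genes 12 fell and 0 rose, with a median of -0.19. The phosphofructokinase gene *Pfkp* had 305, 201 and 232 CPM against 511, 317 and 348 CPM (-0.66, SE 0.06, adjusted p = 1.79e-08), and *Ndrg1* had 33.1, 11.1 and 19.3 CPM against 69.6, 15.9 and 22.7 CPM (-0.65, SE 0.13, adjusted p = 0.000428). *Ndrg1* fell by 0.36 without replicate 1, and its call was lost in a robust fit. In both lists 0 genes were higher at an unadjusted p under 0.05 in edgeR, and DESeq2 called 10 genes lower and 0 higher in each. Without the replicate block edgeR called 0 genes of either list (2 cholesterol and 1 hypoxia and glycolysis genes were lower at an unadjusted p under 0.05).

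Targets of p53 were mostly higher. Of 21 genes of p53 and its targets, 12 rose and 2 fell, with a median log2 fold change of 0.24 beside an EtOH control difference of 0.16. *Ccng1*, cyclin G1, had 390, 290 and 328 CPM in *Zbtb11* KO, 259, 202 and 228 CPM in the 4OHT control and 353, 239 and 270 CPM in the EtOH control (log2 fold change 0.55, SE 0.05, adjusted p = 1.12e-07, not called without the block). *Phlda3*, an inhibitor of Akt signalling, rose by 0.59 (SE 0.09, adjusted p = 1.71e-05, not called without the block). *Cdkn1a*, the p21 cell cycle inhibitor and a classical p53 target, had 80.2, 39.9 and 40.5 CPM against 108, 36.0 and 32.2 CPM and was not called (-0.01, SE 0.09, adjusted p = 0.934). *Cdkn1a* was lower in *Zbtb11* KO in replicate 1 and higher in replicates 2 and 3, and without replicate 1 its log2 fold change was 0.23 (adjusted p = 0.0294). Without the block edgeR called 1 gene of the list higher and 0 lower (4 and 1 at an unadjusted p under 0.05). Of 21 integrated stress response genes 5 rose (3 without replicate 2) and 2 fell, and without the block edgeR called 0 (3 higher and 1 lower at an unadjusted p under 0.05).

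ESC and lineage genes differed in both directions, mostly by less than 2-fold. Of 19 naive pluripotency genes 7 fell and 4 rose (4 lower without replicate 2 and 3 without replicate 3). Of the 6 ESC markers outside the regions set apart 5 fell, the largest fall being that of *Dppa5a*, and edgeR called 0 of them without the block (2 at an unadjusted p under 0.05) and 3 without replicate 2 or replicate 3. *Dppa5a* had 632, 481 and 443 CPM in *Zbtb11* KO, 972, 772 and 606 CPM in the 4OHT control and 599, 513 and 380 CPM in the EtOH control (log2 fold change -0.58, SE 0.06, adjusted p = 1.96e-07), and *Klf4* fell by 0.40 on the log2 scale (adjusted p = 5.47e-05). Both calls were lost without the block, where edgeR called 0 genes of the list lower and 1 higher (3 and 1 at an unadjusted p under 0.05). *Gbx2* rose by 0.89 on the log2 scale, a call lost without the block. Of 19 primed and lineage genes 2 fell (5 without replicate 1) and 5 rose (1 and 3 without the block). *Eomes* fell by 0.74 and *Otx2* by 0.71, the latter not called without the block. Among the rises was *Lama1*, laminin alpha 1, with 280, 282 and 265 CPM against 135, 136 and 139 CPM in the 4OHT control and 280, 274 and 254 CPM in the EtOH control (1.01, SE 0.05, adjusted p = 6.77e-12).

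Imprinted genes had large differences that the EtOH control shared. Of 35 tested, 7 fell and 16 rose (4 and 6 without the block). *Cdkn1c*, a maternally expressed cell cycle inhibitor, had 13.9, 10.3 and 13.5 CPM in *Zbtb11* KO, 29.4, 19.8 and 29.7 CPM in the 4OHT control and 14.8, 10.3 and 13.2 CPM in the EtOH control (log2 fold change -1.06, SE 0.08, adjusted p = 4.61e-09). The paternally expressed *Peg10* had 357, 345 and 385 CPM, 139, 165 and 192 CPM and 357, 366 and 418 CPM (1.14, SE 0.06, adjusted p = 1.14e-11). *Igf2* rose by 0.99, beside an EtOH control difference of 1.1. Germline genes had 2 falls and 2 rises among 17 (1 and 1 without the block). Without replicate 1 edgeR called 2 falls and 0 rises (4 and 0 at an unadjusted p under 0.05), and without replicate 2 it called 1 and 1. *Mael*, a piRNA pathway gene, fell by 1.15 on the log2 scale, beside an EtOH control difference of -0.90.

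Of 72 cytosolic ribosome genes 7 fell and 0 rose (15 and 0 at an unadjusted p under 0.05 in edgeR, and 6 and 0 called by DESeq2, with 4 falls without replicate 1 and 3 without replicate 2), led by *Rpl39l*, a testis-enriched paralogue of *Rpl39* (log2 fold change -1.55, EtOH control difference -1.33). Of 14 DNA methylation genes 2 fell and 5 rose, with log2 fold changes from -0.34 for *Mbd1* to 0.26 for *Dnmt3l*, and without the block edgeR called 0 (1 lower and 2 higher at an unadjusted p under 0.05). Without replicate 1 edgeR called 4 falls and 3 rises, without replicate 2 it called 0 and 2 (1 and 4 at an unadjusted p under 0.05), and without replicate 3 it called 0 and 4 (1 and 6 at an unadjusted p under 0.05). The *Mbd1* call was also lost in DESeq2 and without replicate 2, where its log2 fold change was -0.18, and without replicate 3, and the *Dnmt3l* call was lost without replicate 2. Of 300 zinc finger genes of the Zfp series 36 (12%) fell and 39 (13%) rose, below the background of 16.4% and 16.2%. Without the block 10 fell and 6 rose, and without replicate 2 23 fell and 21 rose. *Zfp11*, whose promoter held CGGAACC at 2 places, had 0.932, 1.07 and 0.944 CPM against 4.19, 6.05 and 6.13 CPM, with 5.89, 4.83 and 5.64 CPM in the EtOH control (-2.48, SE 0.21, adjusted p = 1.21e-08).

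Genes on chromosome 8 were lower as a whole. Of 758 tested, 403 (53.2%) were lower and 33 higher in *Zbtb11* KO than in the 4OHT control, and the median log2 fold change was -0.24, whereas medians of the 18 other autosomes, with chromosome 6 counted up to the boundary, lay between -0.01 and 0.03. The median difference was spread along the chromosome, from -0.16 to -0.35 in bins of 10 Mb. Per library, the median over the genes of log2 CPM relative to the mean of the 6 libraries was -0.132, -0.129 and -0.117 in *Zbtb11* KO and 0.144, 0.136 and 0.104 in the 4OHT control, a level 0.838-fold as high. The EtOH control stood at -0.113, -0.110 and -0.120, together with *Zbtb11* KO. The exact two-sided permutation test gave p = 0.1, the smallest that 3 libraries against 3 allow.

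*Cnot1* and *Sf3b3* were among the highly expressed genes named from the called ones of chromosome 8, most of which were lower. *Cnot1*, the scaffold of the CCR4-NOT deadenylase, had 643, 613 and 614 CPM in *Zbtb11* KO, 860, 782 and 838 CPM in the 4OHT control and 656, 641 and 662 CPM in the EtOH control (log2 fold change -0.41, SE 0.05, adjusted p = 4.70e-06). *Sf3b3*, a splicing factor, fell by 0.48 (adjusted p = 4.22e-07). The metallothionein genes *Mt1* and *Mt2*, which bind zinc and copper, went the other way. *Mt1* had 141, 119 and 123 CPM in *Zbtb11* KO, 83.7, 66.5 and 68.2 CPM in the 4OHT control and 120, 118 and 119 CPM in the EtOH control (0.82, SE 0.06, adjusted p = 1.32e-09), and *Mt2* rose by 0.51 (adjusted p = 8.45e-06). *Cdh1*, E-cadherin, was lower by 0.19 (adjusted p = 0.00749), a call that was lost without the block and without replicate 3.

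Genes from *Trnt1* to the end of chromosome 6 were higher as a block. Of 266 tested, 207 (77.8%) were higher and 3 lower, with a median log2 fold change of 0.57, and bins of 5 Mb had medians from 0.44 to 0.69. The per-library medians were 0.306, 0.262 and 0.264 in *Zbtb11* KO, -0.221, -0.287 and -0.294 in the 4OHT control and 0.306, 0.279 and 0.271 in the EtOH control, a level 1.46-fold as high in *Zbtb11* KO as in the 4OHT control (exact two-sided permutation p = 0.1, the smallest possible). The median difference between *Zbtb11* KO and the EtOH control was -0.003 here and -0.0006 on chromosome 8. On the proximal side of the boundary *Ppp4r2* had a log2 fold change of 0.08 (adjusted p = 0.321) and *Pdzrn3*, the nearest gene tested, 0.56 (adjusted p = 0.0304). On the distal side *Trnt1*, which adds CCA ends to tRNAs, had 0.69 (adjusted p = 6.92e-09). *Pdzrn3* starts at 101.33 Mb and *Trnt1* at 106.72 Mb (mm9). No tested gene starts between them, so where the block begins was not located.

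**Figure D5:**
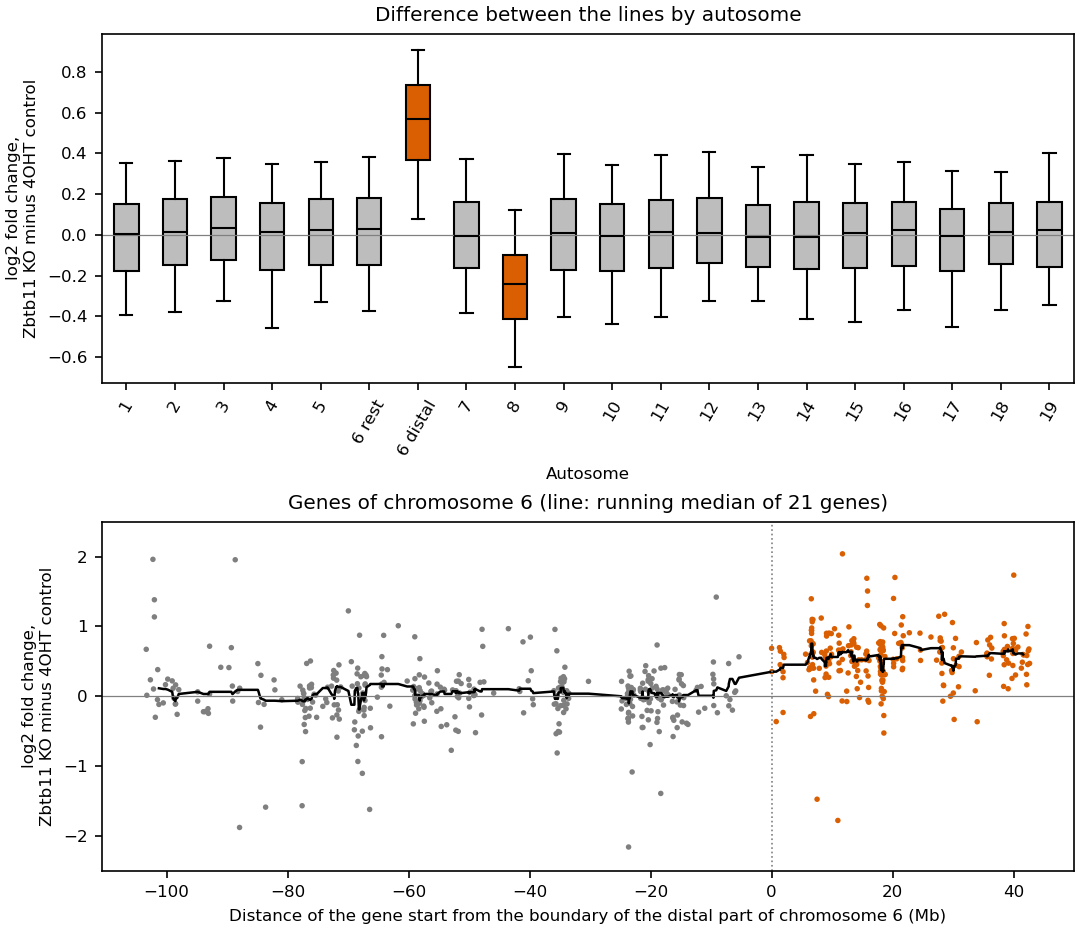
Top, log2 fold change between *Zbtb11* KO and the 4OHT control by autosome (boxes: quartiles with the median, whiskers: 10th and 90th percentiles); bottom, the same for each gene of chromosome 6 by distance from the boundary in Mb, with a running median of 21 genes, distal genes in orange. Chromosome 8 has a median of -0.24 and distal chromosome 6 a median of 0.57, while the other autosomes have medians between -0.01 and 0.03.

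Distal chromosome 6 held *Thumpd3* and *Setd5*, the genes on either side of Rosa26, where ERt2-Cre was inserted in the *Zbtb11* KO and EtOH control cells. *Thumpd3* had 108, 127 and 128 CPM in *Zbtb11* KO, 58.9, 74.3 and 76.6 CPM in the 4OHT control and 102, 131 and 125 CPM in the EtOH control (log2 fold change 0.79, SE 0.05, adjusted p = 4.53e-10), and the Rosa26 transcript Gt(ROSA)26Sor overlaps it on the opposite strand. *Setd5* rose by 0.40 (SE 0.05, adjusted p = 3.02e-06). *Phc1*, a Polycomb subunit, had 1309, 1261 and 1206 CPM against 861, 838 and 786 CPM, with 1311, 1223 and 1296 CPM in the EtOH control (0.60, SE 0.06, adjusted p = 5.57e-08). *Rpl32* rose by 0.53 (adjusted p = 2.78e-07). The pluripotency factor gene *Nanog* had 660, 628 and 514 CPM against 515, 494 and 460 CPM, so that the groups overlapped by 1 *Zbtb11* KO library, and 656, 657 and 569 CPM in the EtOH control (0.29, SE 0.06, adjusted p = 0.000364). *Nanog* shares near-identical stretches with 15 other genes, and its call was lost without the block. Copy number of chromosome 8 and distal chromosome 6 was not measured here, and its part in these shifts was not tested.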

How the data were processed

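RNA was rRNA-depleted and made into directional libraries, sequenced as 75-base paired ends. As far as the study's methods and the labels say, the authors trimmed reads, aligned them with STAR to mm9 and counted reads per gene with HTSeq. The deposited files hold raw counts for 37310 gene identifiers, all matched to GENCODE vM1. The deposited ChIP-seq table holds read coverage (signal) normalised by the authors with DiffBind at 7500 consensus peaks, here the mean of 4 Zbtb11 antibody libraries. Peak positions in the deposited lists are mm9 coordinates. Versions of STAR, HTSeq and DiffBind are not given in the sources used here.

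Counts of 9 RNA-seq libraries were fitted in edgeR 4.0.16 (R 4.3.3) with TMM normalisation, genes above 1 CPM in 3 or more libraries, the quasi-likelihood F test (two-sided, 4 residual degrees of freedom), replicate number as a block, and Benjamini-Hochberg adjustment over 14346 genes at 0.05. No 2 count files were identical. Deviations from group means of same-numbered *Zbtb11* KO and 4OHT control libraries correlated at 0.786, 0.439 and 0.626. Over all same-numbered pairs the range was 0.421 to 0.815. Replicate 2 of one group and replicate 3 of another correlated at 0.29 to 0.52. The correlations therefore set replicate 1 apart but do not settle the pairing of replicates 2 and 3, for which the numbers were taken as given. The study's methods call the 3 libraries of each group biological replicates. CPM values use TMM-scaled library sizes, and counting precision follows from 14301457 to 23876604 reads per library.

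Named genes included the 10 largest called differences in each direction. These were autosomal, outside the regions set apart and annotated as protein-coding or long intergenic non-coding. They had a symbol that is no clone or predicted-gene name, at least 2 CPM in the higher group and no overlap between groups. The other named genes were up to 4 called members of each of 26 lists, the 5 most expressed called genes on chromosome 8 and distal chromosome 6, and a fixed set. Genes outside this rule that are named as further list members or as neighbours of the chromosome 6 boundary were chosen after their values were seen. The members and lists were chosen with earlier results of these data known. Near-identical means at least 95% identity over 100 bases between transcripts (blastn 2.17.0). Some further named genes, among them *Trp53rk* and *Tufm*, also share such a stretch with another gene. No set test was run. Alternatives were no block, only the 6 libraries, DESeq2 1.42.0, other normalisations, filters, thresholds and a robust fit, and each replicate left out. The statistics were tested on simulated data. Some named genes are not reported here.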

Additional observations from a re-analysis of the deposited data

How the results depend on the processing

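Across 13 alternatives of each count, chromosome 8 kept more genes lower than higher and distal chromosome 6 more higher than lower, and leaving out the block moved the counts most. Without the replicate block, that is without the pairing by number, edgeR called 412 autosomal genes lower and 264 higher, 98 lower and 5 higher on chromosome 8, and 1 lower and 106 higher on distal chromosome 6. Of the 117 genes called among 122 named genes, 50 lost their call without the block, and the largest decreases and increases kept theirs. With glmTreat for changes above 1.2-fold the counts were 759 and 550 on autosomes and 147 and 11 on chromosome 8. At an adjusted p under 0.01, 1289 autosomal and 20 chromosome 8 genes were higher, and with a filter of more than 5 CPM 1 distal chromosome 6 gene was lower. Leaving out 1 replicate gave 1248 to 1718 autosomal genes lower and 1164 to 1616 higher, the lowest without replicate 2, and 276 to 353 lower and 24 to 26 higher on chromosome 8 and 3 to 4 lower and 189 to 197 higher on distal chromosome 6. DESeq2 called 1568 lower and 1544 higher autosomal genes. The autosomal calls were nearly even, and higher calls outnumbered lower ones with library sizes in place of TMM (1800 lower, 2472 higher), with no filter (2039, 2168) and above 5 CPM (1778, 1823). *Nrf1*, not called, changed sign without replicate 3 (log2 fold change 0.0118, and -0.11 without replicate 1). *Cdkn1a*, not called, changed sign with DESeq2 (0.0101), with library sizes in place of TMM (0.0147) and without replicate 1 (0.23, against -0.16 without replicate 3). The cause was not tested. Of the 52 list counts, 39 moved by over 1.5 times without the block and 12, 24 and 10 without replicates 1, 2 and 3. Depth limits genes near 1 CPM, such as *Hus1b*.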

Other observations

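Genes of the sex chromosomes and the mitochondrial genome were outside the comparison. Of 509 X-linked genes tested, 78 were lower and 104 higher in *Zbtb11* KO than in the 4OHT control (edgeR, adjusted p under 0.05), with a median log2 fold change of 0.01. All 6 Y-linked genes tested were lower. *Ddx3y*, an RNA helicase gene, had 0 reads in each *Zbtb11* KO and each EtOH control library against 1094, 1763 and 2229 reads in the 4OHT control, which is at least 1622-fold lower when the floor is 3 reads over the group. *Kdm5d*, a histone demethylase gene, had 0 reads in the same 6 libraries against 25, 25 and 32, at least 26.2-fold lower. Of 10 genes of the mitochondrial genome, edgeR called 1 lower and 0 higher.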
